A study of Homo sapiens with 40 samples.

Results

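Head-to-head gene pairs are neighbouring genes on opposite strands that are transcribed away from each other. They were described here in 1 catalogue of transcript models from human embryonic stem cells of the line H9 and neural progenitors made from these. A pair was selected on the mapped 5' ends of the models: the 5' end of at least 1 model of the minus-strand gene had to lie upstream of the 5' end of at least 1 model of the plus-strand gene, at most 1000 nt away. Of 9460 genes with a model, 1526 (16.1%) lay in such a pair, and they formed 770 pairs. The 5' ends chose the pairs, so their number and the distances inside the 1000 nt are a description and were not tested. A distance is the number of nt from the 5' end of the minus-strand model to that of the plus-strand model, and the closest model pair gave the distance of a gene pair.

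Genes arranged head-to-head at a short distance share the DNA from which both are transcribed, which is called a bidirectional promoter. Such promoters are usually rich in CpG and often lack a TATA box. Many housekeeping genes of DNA repair, mitochondria and RNA metabolism are known to lie in such pairs, and many long non-coding RNAs (lncRNAs) start next to a protein-coding gene and run the other way. Symbols that end in -DT name the divergent transcript of the gene before the hyphen, and symbols that end in -AS name a transcript antisense to it.

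H9 is a widely used line of embryonic stem cells (ESC), and the neural progenitor cells (NPC) were made from it by dual-SMAD inhibition, a block of both branches of SMAD signalling; all cells were therefore of 1 line. From each cell type, RNA was collected from cytosol, monosomes, light polyribosomes (2 to 4 ribosomes) and heavy polyribosomes (5 or more), giving 8 groups. Each group had 2 long-read and 3 short-read libraries, 40 in all. The catalogue holds 19972 models for the whole series and no value per library, so no difference between ESC and NPC or between fractions could be measured, and its depth is unknown. Of 7 ESC markers 6 had a model (all but LIN28A), and of 6 NPC markers 5 had a model (all but SOX1). A gene without a model was not necessarily silent. No source used here gives the genome build, so the models' positions are those of the deposited file, counted from 1.

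The sequence between the starts is what a head-to-head pair shares. For 157 pairs, RefSeq (assembly GRCh38.p14) lists for each gene a start within 20 nt of the 5' end of the closest model, with at most 300 bases between them. The stretches below were chosen after their values were seen, to show short ones, pairs of 1 gene family, an example of each motif that matched and some without a match. They are given on the plus strand with the minus-strand gene to the left and the plus-strand gene to the right, and capitals mark matches to the motifs searched on both strands. TATAAA stands for the TATA box, CCAAT for the site of the factor NF-Y, GGGCGG for the GC box bound by SP1, and GCATGCGC for nuclear respiratory factor NRF1. CCGGAAG stands for the ETS family of factors, AGATGGCGG for YY1, TGACGTCA for the factor CREB, and TCTCGCGA is a motif known from CpG island promoters.
MRM2/NUDT1 (chr7:2242206-2242225): gcctggcctcaCTTCCGGtc
HARS1/HARS2 (chr5:140691371-140691454): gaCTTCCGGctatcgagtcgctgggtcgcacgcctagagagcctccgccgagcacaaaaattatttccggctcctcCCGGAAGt
TUBGCP2/ZNF511 (chr10:133308873-133308913): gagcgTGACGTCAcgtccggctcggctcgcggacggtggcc
LYRM4/FARS2 (chr6:5260951-5261006): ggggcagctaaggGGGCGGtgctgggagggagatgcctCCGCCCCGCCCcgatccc
CHMP1A/SPATA33 (chr16:89657709-89657775): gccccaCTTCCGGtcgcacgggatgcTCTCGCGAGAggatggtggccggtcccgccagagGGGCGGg
C22orf23/POLR2F (chr22:37953602-37953698): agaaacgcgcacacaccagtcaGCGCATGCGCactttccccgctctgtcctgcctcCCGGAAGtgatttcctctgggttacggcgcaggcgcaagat
ZNF790/ZNF345 (chr19:36850793-36850875): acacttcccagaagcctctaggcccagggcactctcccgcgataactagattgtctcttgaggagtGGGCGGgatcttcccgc
SARS2/MRPS12 (chr19:38930764-38930943): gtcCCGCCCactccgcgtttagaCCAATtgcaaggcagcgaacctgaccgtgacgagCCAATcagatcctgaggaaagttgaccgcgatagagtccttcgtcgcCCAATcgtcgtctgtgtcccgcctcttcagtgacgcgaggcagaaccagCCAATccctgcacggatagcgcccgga
NDUFA7/RPS28 (chr19:8321376-8321495): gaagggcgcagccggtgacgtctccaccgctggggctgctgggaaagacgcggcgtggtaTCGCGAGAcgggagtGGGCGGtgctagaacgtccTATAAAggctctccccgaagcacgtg
MAGOH/MAGOH-DT (chr1:53238519-53238609): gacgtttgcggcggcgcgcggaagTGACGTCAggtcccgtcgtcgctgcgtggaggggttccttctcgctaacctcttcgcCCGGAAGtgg
RPL37A-DT/RPL37A (chr2:216498753-216498843): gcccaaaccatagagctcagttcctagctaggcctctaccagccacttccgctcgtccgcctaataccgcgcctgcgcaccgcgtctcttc
CKMT2-AS1/ZCCHC9 (chr5:81301570-81301586): gtgacgcgctctcgggc
TAF1A/TAF1A-AS1 (chr1:222589934-222589958): gacttctggaagtgacccaggaagt

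The stretch of MRM2, a mitochondrial ribosomal RNA methyltransferase, and NUDT1, which hydrolyses oxidised nucleotides, was 20 bases long and held 1 ETS match. HARS1 and HARS2, the cytosolic and the mitochondrial histidyl-tRNA synthetase, shared 84 bases with an ETS match near each end, in opposite orientations. TUBGCP2 and ZNF511 shared 41 bases with a CREB match, and LYRM4 and FARS2, the mitochondrial phenylalanyl-tRNA synthetase, shared 56 bases with 3 GC box matches that include an overlapping pair. SARS2, the mitochondrial seryl-tRNA synthetase, and MRPS12, a protein of the mitochondrial ribosome, shared 180 bases with 4 CCAAT matches and 1 GC box. NDUFA7 and RPS28 had 1 of the 4 stretches with a TATA box match. RPL37A-DT/RPL37A, CKMT2-AS1/ZCCHC9 and TAF1A/TAF1A-AS1 held none of the 8 motifs.

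Over the 157 stretches the median length was 126 nt and the median G+C content 67.7%, and 156 held at least 1 CpG. A GC box was found in 80 (51%, 95% Clopper-Pearson interval 42.9 to 59%), CCAAT in 53 (33.8%, 26.4 to 41.7%) and the ETS motif in 49 (31.2%, 24.1 to 39.1%). NRF1 matched in 10, TCTCGCGA in 7, CREB in 5 and the TATA box in 4 stretches. YY1 matched in 0 of 157, which allows a share of up to 2.32%, and 26 stretches (16.6%) held no match at all. A match is a description of the letters and not of binding. Some stretches occur in more than 1 pair, as UTP4 has the same one with CHTF8 and with DERPC.

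The closest 5' ends of the 770 pairs lay a median of 150.5 nt apart (95% interval of the median from order statistics 142 to 162, quartiles 89.8 and 276.8, range 1 to 995). Of the pairs, 55 lay at most 50 nt apart, 230 at most 100 nt, 479 (62.2%, 58.7 to 65.6%) at most 200 nt and 602 (78.2%) at most 300 nt, and 52 lay over 500 nt apart. The fullest bin of 20 nt ran from 61 to 80 nt and held 72 pairs. Past the 1000 nt of the rule the number per kilobase was lower: 40 gene pairs lay 1000 to 2000 nt apart, 31 at 2000 to 3000 nt, 19 at 3000 to 4000 nt and 31 at 4000 to 5000 nt. Just inside the limit were SMIM7/TMEM38A at 995 nt, YME1L1/MASTL at 993 nt and ZBTB25/ZBTB1 at 992 nt. Just outside were APBA3/MRPL54 at 1006 nt, ABHD14B/ABHD14A at 1026 nt and UBQLN4/LAMTOR2 at 1049 nt.

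**Figure D1:**
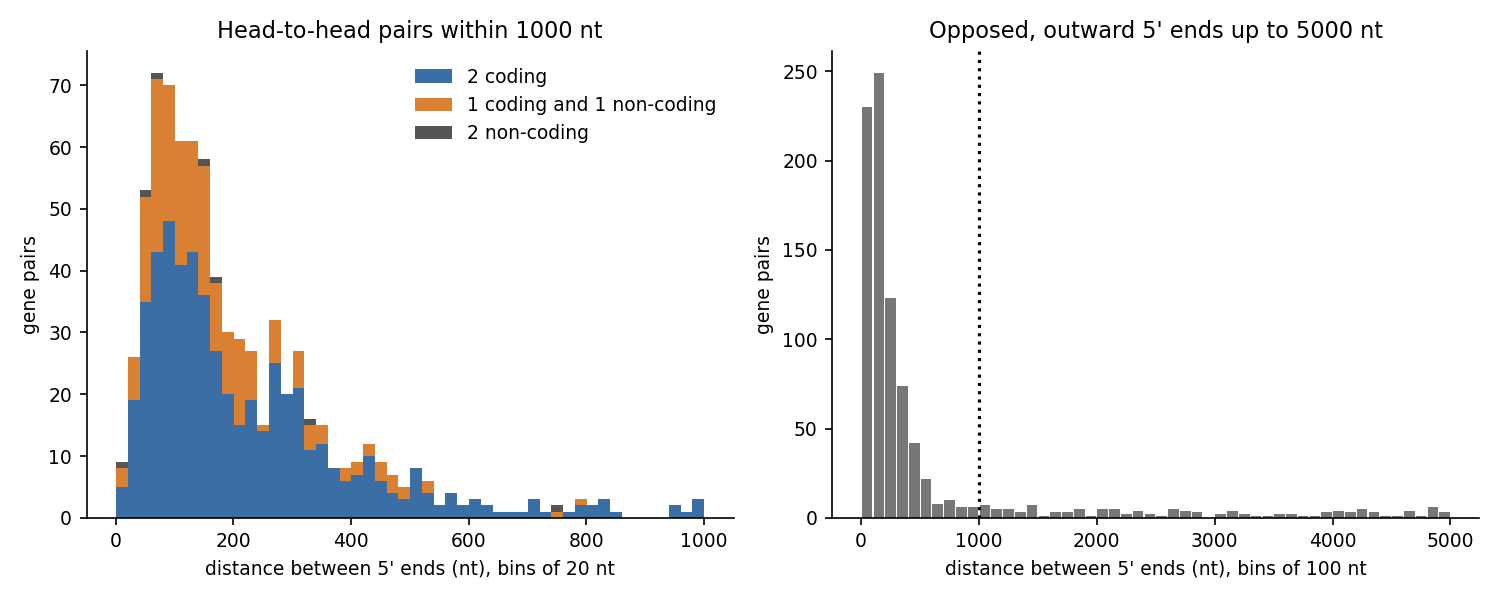
Number of gene pairs (vertical axis) by distance between their closest 5' ends in nt (horizontal axis). The left panel shows the 770 pairs in bins of 20 nt, stacked by whether 2, 1 or neither of the genes has a deposited coding region, with the fullest bin at 61 to 80 nt. The right panel shows opposed outward 5' ends up to 5000 nt in bins of 100 nt, with the limit of 1000 nt dotted and few pairs beyond it.

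A gene was counted as coding when at least 1 of its models carried a coding region. By that count 545 pairs (70.8%, 67.4 to 74%) joined 2 coding genes, 218 (28.3%, 25.2 to 31.6%) joined a coding and a non-coding gene, and 7 (0.909%, 0.366 to 1.86%) joined 2 non-coding genes. The median distance was 164 nt (149 to 180) between 2 coding genes and 131.5 nt (118 to 148) in mixed pairs. These distances chose the pairs and ended at 1000 nt, so the 2 medians are a description and no difference is drawn from them. At most 200 nt separated 317 pairs of 2 coding genes (58.2%, 53.9 to 62.3%) and 157 mixed pairs (72%, 65.6 to 77.9%). Of the 52 pairs over 500 nt apart, 47 joined 2 coding genes and 4 were mixed. In mixed pairs the coding gene was on the plus strand 103 times and on the minus strand 115 times.

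Among the closest pairs of 2 coding genes was METTL6, a tRNA methyltransferase, with EAF1, a partner of the elongation factor ELL, at 11 nt. The 7 METTL6 models started at 4 positions, 11, 26, 28 and 31 nt from the 1 EAF1 model. FBXL6, an F-box protein, and SLC52A2, a riboflavin transporter, were 13 nt apart. TDP2, which removes protein adducts from DNA ends, and ACOT13, an acyl-CoA thioesterase, were 16 nt apart. MRM2/NUDT1 at 21 nt, ASCC1/ANAPC16 and GLMN/RPAP2 at 24 nt, RXRB/SLC39A7 at 25 nt and PPP2R3C/PRORP at 28 nt were also among the closest 10, as was PTRH2/VMP1 at 19 nt. RXRB is a retinoid X receptor and SLC39A7 a zinc transporter, ANAPC16 is a subunit of the anaphase-promoting complex, and PRORP is the nuclease of mitochondrial RNase P.

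How far the models of 1 pair disagreed is part of the same description. The 770 pairs gave 4617 combinations of a minus-strand with a plus-strand model, of which 4146 met the rule, and in 646 pairs (83.9%) all combinations met it, including the pairs with a single combination. Of the 634 pairs with more than 1 combination 510 met it throughout, and in these 634 the median range of distances was 48 nt, and 83 pairs had a range over 1000 nt. In 51 pairs the 5' ends of some models passed each other. ASCC1/ANAPC16 was such a pair, with distances from -297 to 79 nt over its models, where a negative value means passing ends. Another 61 gene pairs had 5' ends that passed each other within 1000 nt and no models in the head-to-head order, and these were left out.

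**Figure D2:**
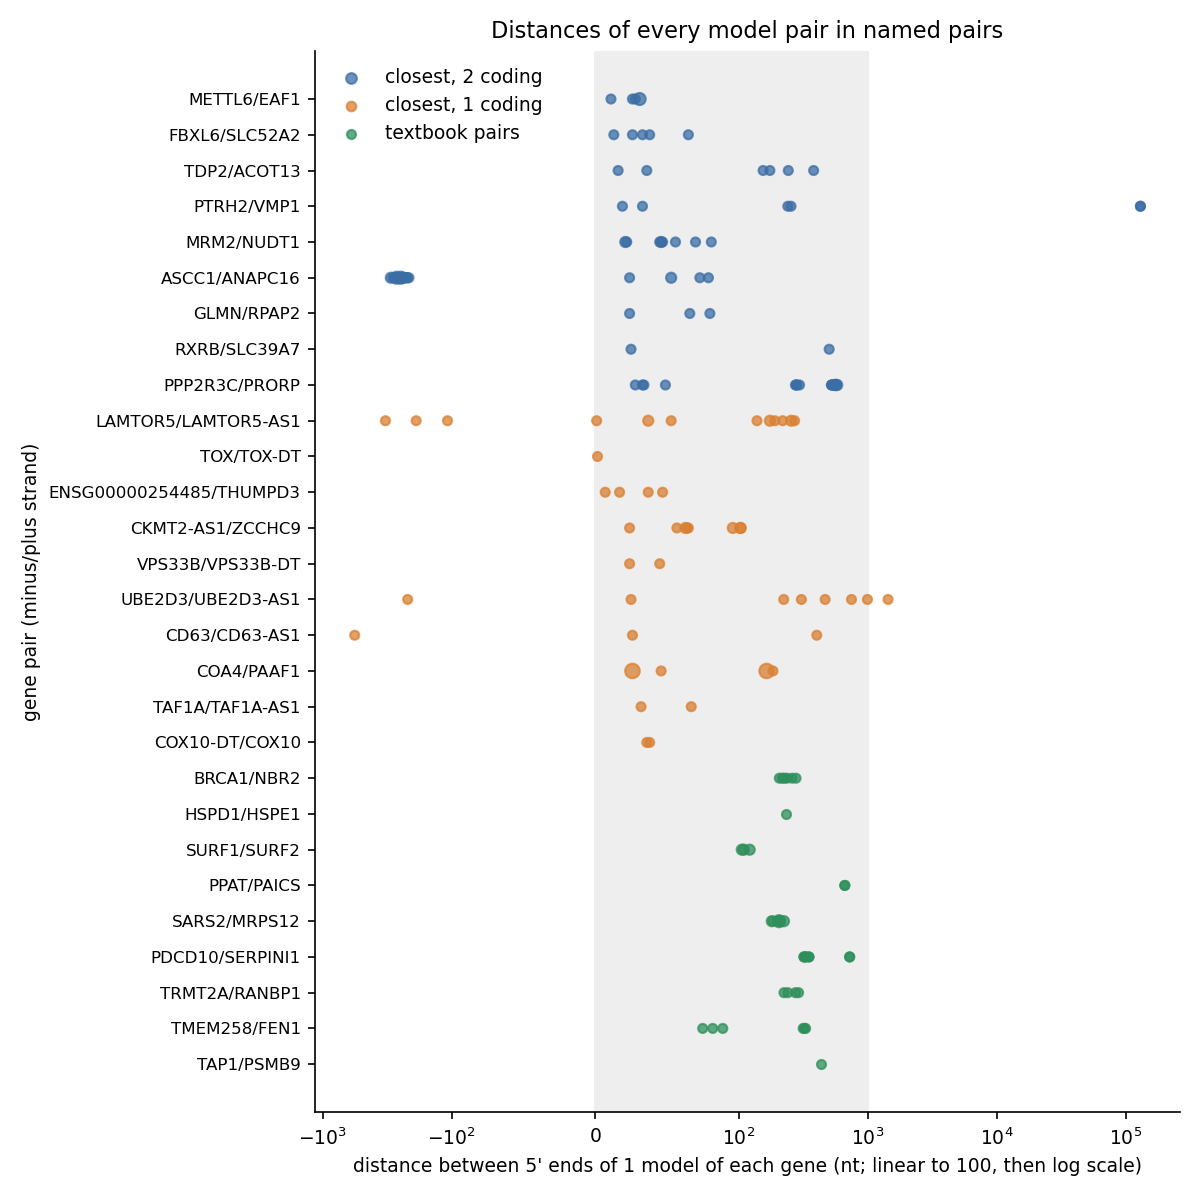
Distance between the 5' ends of each combination of models (horizontal axis, in nt, linear to 100 and log scale beyond) for 9 of the closest pairs of 2 coding genes, the 10 closest mixed pairs and 9 of the textbook pairs found. Each point is 1 distance, larger where several combinations share it, and the grey band is the 0 to 1000 nt of the rule; PTRH2/VMP1 has points at 130157 and 130379 nt, and ASCC1/ANAPC16 has most of its points left of 0.

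The pairs with the most models over both genes show both kinds. APTX/DNAJA1, MICOS13/HSD11B1L, ZBTB8OS/RBBP4, ZNF232/ZNF232-AS1 and ZSWIM7/TTC19 had 18 models each, and NPRL2/CYB561D2 had 17. In ZBTB8OS/RBBP4, where RBBP4 is a histone-binding protein of chromatin complexes, all combinations lay between 628 and 673 nt. For ZSWIM7/TTC19, where TTC19 assists complex III of the respiratory chain, they lay between 93 and 189 nt, from 14 different 5' ends of ZSWIM7. APTX, an enzyme that repairs aborted DNA ligations, had 9 models starting 99 to 127 nt from DNAJA1, a co-chaperone, and 8 models starting 23601 to 23652 nt away. NPRL2 and CYB561D2 likewise had combinations at 65 to 106 nt and others at 14554 to 14601 nt.

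A far model is here one that met the rule with no model of the partner and that started over 1000 nt, on either side, from each model of its own gene that did. Far models were found in 74 paired genes (4.85%, 3.83 to 6.05%). Of 151 far models 138 (91.4%, 85.7 to 95.3%) started downstream of the near starts, in the direction of transcription. Whether these were models cut short at the 5' end was not tested. In 53 of the 74 genes both the near and the far models carried coding regions. In 26 of the 53 (49.1%, 35.1 to 63.2%) a near and a far model had the same coding start and thus a different 5' untranslated region before the same first codon. CBX5, a heterochromatin protein, is an example. Of its 4 models 2 started 613 to 626 nt and 2 started 21177 to 21183 nt from the near starts of HNRNPA1, a splicing regulator, and 3 of the 4, from both places, carried the same coding region of 192 codons. In PTRH2/VMP1, where PTRH2 is a peptidyl-tRNA hydrolase and VMP1 a membrane protein of autophagosome formation, 2 VMP1 models, 1 of them with a coding region of 407 codons, started 19 to 255 nt from PTRH2 and another without a coding region started 130157 to 130379 nt away. The largest range, 493667 nt, belonged to FGF13/FGF13-AS1, with a closest distance of 105 nt.

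Of 15 head-to-head pairs known from textbooks, 10 were found, and in the other 5 at least 1 gene had no model. The closest were TMEM258/FEN1 at 75 nt, where FEN1 is the flap endonuclease of DNA replication, and SURF1/SURF2 at 106 nt, where SURF1 assists assembly of cytochrome c oxidase. SARS2/MRPS12 lay at 181 nt in the catalogue, with its stretch printed above. BRCA1, a tumour suppressor of DNA repair, and NBR2 lay 207 nt apart, with combinations up to 279 nt. TRMT2A/RANBP1 lay at 225 nt, PDCD10/SERPINI1 at 321 nt and TAP1/PSMB9, which encode an antigen peptide transporter subunit and an immunoproteasome subunit, at 434 nt. PPAT and PAICS, which both catalyse steps of purine synthesis, lay at 665 nt. HSPD1, the mitochondrial chaperonin, and HSPE1, its co-chaperonin, had 1 model each and lay 235 nt apart on chromosome 2, with HSPD1 from 197486585 to 197499893 and HSPE1 from 197500128 to 197503444. Among the absent pairs were BRCA2/ZAR1L, where neither gene had a model, ATM/NPAT without NPAT, COL4A1/COL4A2 without COL4A1 and PRKDC/MCM4 without PRKDC.

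**Figure D3:**
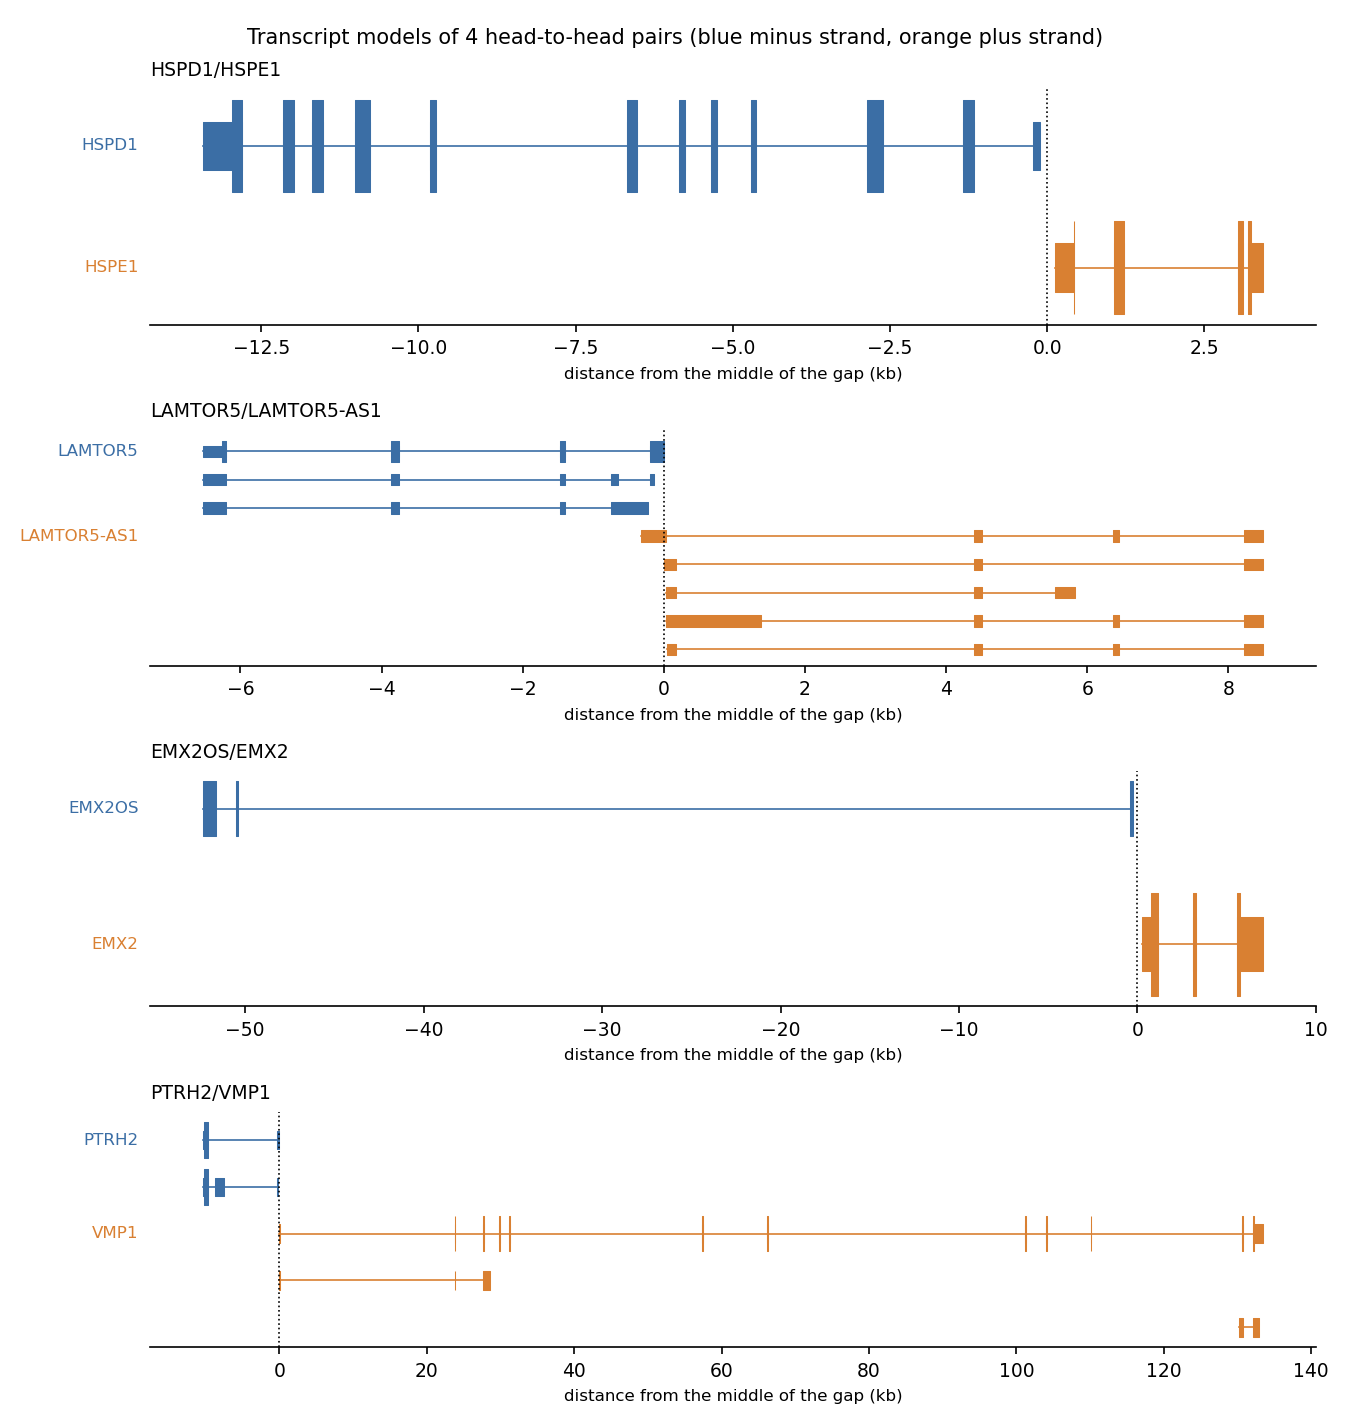
Deposited models of HSPD1/HSPE1, LAMTOR5/LAMTOR5-AS1, EMX2OS/EMX2 and PTRH2/VMP1, drawn to scale by distance from the middle of the closest gap in kb (horizontal axis). Tall boxes are coding parts of exons, low boxes are non-coding parts, lines are introns, blue is the minus strand and orange the plus strand. HSPD1 and HSPE1 leave a gap of 235 nt, LAMTOR5 and LAMTOR5-AS1 overlap in some models, and 1 VMP1 model starts at least 130157 nt from the PTRH2 starts.

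Gene families, grouped by symbol, had different shares of their genes in a pair, to be read beside the 16.1% of all genes with a model. The lists and the rule were chosen with earlier results known, and no family was tested. Of genes for proteins of the mitochondrial ribosome 20 of 77 (26%, 16.6 to 37.2%) were in a pair. On the respiratory chain list 24 of 95 were (25.3%, 16.9 to 35.2%), and both intervals lie above the 16.1%. That list also takes in NDUF assembly factors, ATP synthase genes and symbols of COX with a digit, such as COX10 and COX15. The share was 9 of 29 for tRNA synthetases (31%, 15.3 to 50.8%), 9 of 31 for DNA repair genes (29%, 14.2 to 48%), 10 of 78 for the cytosolic ribosome (12.8%, 6.32 to 22.3%) and 8 of 45 for the proteasome (17.8%, 8 to 32%), and these 4 intervals include the 16.1%. ZNF genes, most of which encode zinc finger transcription factors, had 22 of 268 in a pair (8.21%, 5.22 to 12.2%), with an interval below the 16.1%. Chaperones had 10 of 53 (18.9%, 9.44 to 32%) and replication genes 5 of 21 (23.8%, 8.22 to 47.2%), again with intervals that include it.

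**Figure D4:**
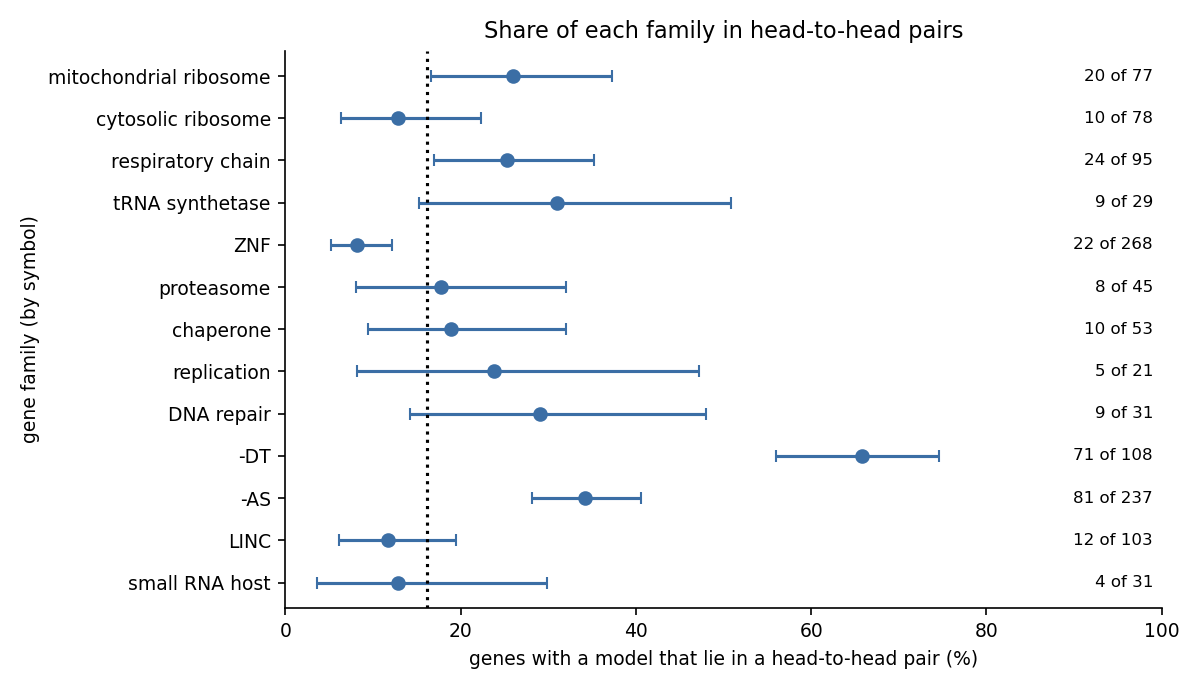
Share of the genes with a model that lay in a head-to-head pair (horizontal axis, percent) for each family named by symbol. Points are shares, bars are 95% Clopper-Pearson intervals that cover counting error only, counts stand at the right, and the dotted line is the 16.1% of all genes with a model. The -DT and -AS families lie highest and the ZNF family has the lowest share.

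Most paired genes of the mitochondrial lists had a partner outside their own list. The median distance of paired genes was 135 nt for the mitochondrial ribosome and 113 nt for the respiratory chain, against 150.5 nt over all pairs. On the other lists of genes for proteins it ran from 132 nt for tRNA synthetases to 211 nt for chaperones. These distances chose the pairs, so the medians are a description and no difference is drawn from them. MRPL43 and TWNK, the mitochondrial DNA helicase, lay 37 nt apart, MRPL30 and MITD1 49 nt, and MRPL27 and EME1, a subunit of a DNA structure-specific endonuclease, 51 nt. MRPL36 lay 92 nt from NDUFS6 and MRPL47 lay 169 nt from NDUFB5, both complex I subunits, so that these pairs joined both mitochondrial lists. NDUFB9 lay 29 nt from TATDN1, NDUFA2 46 nt from IK, a splicing factor, and NDUFS3 48 nt from KBTBD4. RPS28, a protein of the cytosolic ribosome, lay 125 nt from NDUFA7, and RARS2, the mitochondrial arginyl-tRNA synthetase, lay 148 nt from ORC3, a subunit of the origin recognition complex. These partners were named after their values were seen.

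Pairs with both genes on 1 list were few. MRPL46/MRPS11 lay 311 nt apart, HARS1/HARS2 88 nt, ZNF790/ZNF345 99 nt and HSPD1/HSPE1 235 nt, and LINC01356/LINC01357 and LINC00662/LINC02987 lay 48 and 73 nt apart. HARS1/HARS2 and MRPL46/MRPS11 join genes of the same biochemical task. Other such pairs, chosen after their values were seen, were HADHA and HADHB, the subunits of the mitochondrial trifunctional protein of fatty acid oxidation, at 281 nt, and the histone genes H2BC4 and H2AC6 at 249 nt.

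Genes counted as non-coding were more often in a pair than coding ones: 231 of 881 (26.2%) against 1295 of 8579 (15.1%). Of the 231, 51 had symbols ending in -DT and 64 were named -AS or -OT, and such symbols refer to a neighbouring gene. The difference therefore depends in part on genes named for their position, and it is not read as a property of non-coding genes. Among the 881 were 291, with none of the names below, that RefSeq lists as protein-coding. Of these 291 genes, 50 (17.2%) were in a pair, beside 16.1% of all genes with a model. Of the non-coding genes whose symbol ends in -DT, 51 of 79 (64.6%) were in a pair, at a median of 123 nt, and of those named -AS or -OT 64 of 173 (37%), at 128 nt. LINC genes, named for standing between genes, had 9 of 69 in a pair (13%), unnamed genes with an Ensembl identifier 34 of 158 (21.5%), other lncRNAs 12 of 45 and hosts of small RNAs 3 of 25. Counted with and without a coding region, 71 of 108 -DT genes were in a pair, and in all 71 the partner was the gene in the symbol. For -AS genes this held for 52 of 81 (64.2%). The -DT symbols are given to transcripts because of this arrangement, so their agreement with it checks the positions and is no result about the cells.

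LAMTOR5, a subunit of the Ragulator complex of lysosomal nutrient sensing, and LAMTOR5-AS1 had adjacent 5' ends, a distance of 1 nt. The 3 LAMTOR5 and 5 LAMTOR5-AS1 models gave distances from -327 to 272 nt, and 3 of the 15 combinations passed each other. TOX, an HMG-box transcription factor, and TOX-DT were also 1 nt apart, with 1 model each. THUMPD3, part of a tRNA methyltransferase, had 2 models that started 7 to 47 nt from ENSG00000254485, whose models carried no coding region. CKMT2-AS1/ZCCHC9 and VPS33B/VPS33B-DT lay 24 nt apart, UBE2D3/UBE2D3-AS1 25 nt, CD63/CD63-AS1 26 nt, TAF1A/TAF1A-AS1 32 nt and COX10-DT/COX10 36 nt. UBE2D3 is a ubiquitin-conjugating enzyme, CD63 a tetraspanin of late endosomes, TAF1A a factor of RNA polymerase I and COX10 an enzyme of heme A synthesis. COA4/PAAF1 at 26 nt counted as mixed because neither of the 2 COA4 models carried a coding region.

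COA4 was 1 of 50 paired genes that RefSeq lists as protein-coding and that had no deposited coding region. Others were NEDD8, a ubiquitin-like modifier, CDC26, a subunit of the anaphase-promoting complex, BANF1, a DNA-bridging protein of the nuclear envelope, TRIAP1, RPS28 and TMEM258. Conversely, 45 paired genes that RefSeq lists as lncRNAs carried a deposited coding region, such as 1 of 3 FGF13-AS1 models with 2 codons and 1 of 5 LHX5-AS1 models with 99 codons. With RefSeq's gene types in place of the deposited coding regions, 523 of the 716 pairs with a type for both genes (73%) joined 2 protein-coding genes, beside 545 of 770 (70.8%) by coding region, and 171 joined a protein-coding gene and a lncRNA. The classes of pairs therefore depend on the coding-region call for these genes.

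The 7 pairs of 2 non-coding genes lay 13 to 751 nt apart. They were MIOS-DT/MIOS at 13 nt, LINC01356/LINC01357 at 48 nt, LINC00662/LINC02987 at 73 nt, NRAV/DYNLL1 at 141 nt, DLEU2/DLEU1 at 178 nt, EMSY-DT/EMSY at 334 nt and CDC42SE1/MLLT11 at 751 nt. MIOS, a GATOR2 subunit, DYNLL1, a dynein light chain, EMSY, CDC42SE1 and MLLT11 are known protein-coding genes whose models here carried no coding region, so 3 of the 7 pairs held a non-coding gene by name on each side. DLEU1 and DLEU2, lncRNAs deleted in lymphocytic leukaemia, gave 8 combinations between 178 and 265 nt.

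No gene was in more than 2 pairs, and 14 genes were in 2. For some of them the second partner was a joined identifier, in which the catalogue fuses the names of neighbouring genes, as with COQ9 beside CIAPIN1. Others had partners with separate identifiers. PSMG2, a proteasome assembly chaperone, lay 137 nt from SPIRE1 and 279 nt from CEP76. RAD17, a DNA damage checkpoint loader, lay 239 nt from TAF9 and 276 nt from AK6. ELP2, a subunit of Elongator, lay 110 nt from ENSG00000288917 and 515 nt from SLC39A6. SERP1 lay 141 nt from SELENOT and 280 nt from EIF2A through different models, of which the far one started 56814 nt from SELENOT.

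Of the markers of both cell types, only EMX2, a homeobox factor of the dorsal forebrain, was in a pair. EMX2OS, its known antisense transcript, spanned 117490164 to 117542282 on chromosome 10 in 1 model without a coding region, and the 1 EMX2 model spanned 117542746 to 117549546 with 253 codons, leaving 464 nt. Other genes of development in pairs were chosen after their values were seen. LHX5, a LIM homeobox factor of the forebrain, lay 146 nt from LHX5-AS1, whose 5 models had 3 different 5' ends. ZNF503, a zinc finger repressor, lay 125 nt from ZNF503-AS2. MSI1, an RNA-binding protein of neural progenitors, lay 113 nt from RPS27P25, a ribosomal protein pseudogene. DPPA4, a nuclear protein of pluripotent cells, lay 172 nt from ENSG00000289358, and HESX1, a homeobox repressor, lay 155 nt from APPL1. In which of the cell types or fractions these models were read is not given in the catalogue.

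The rule did not use the lengths of the paired genes. It did use the 5' ends, from which span, first exon, first intron and 5' untranslated region are measured. These lengths are thus not independent of the rule, and the values below are a description. Paired coding genes had a median first intron of 2589 nt (2280 to 2965, 1293 genes), against 3657.5 nt (3481 to 3849) in 7276 other coding genes. Their median span was 17044 nt (16009 to 18891) against 20452.5 nt (19857 to 21239), and their median first exon 152 nt (144 to 158) against 169.8 nt (166 to 173). The spread within each set was far wider, with quartiles of the first intron of 812.2 and 7041.5 nt in paired coding genes. In the 1079 genes beside a coding gene the median first intron was 2544 nt (2225 to 2936). Their median span was 16425 nt (15196 to 17838) and their median first exon 149 nt (142 to 155). In the 215 genes beside a non-coding gene the first intron was 3048.5 nt (1931 to 3974), the span 22439 nt (17290 to 27112) and the first exon 161 nt (148 to 179.5). The intervals of these 215 genes overlap those of other coding genes and also those of the 1079 genes. The medians of exon number were 7 in both sets, coding regions had 327 and 335 codons, and the 5' untranslated region had 151 and 145 nt. Non-coding genes in pairs had a first intron of 2243 nt (1896 to 3072) against 2275.5 nt (1865 to 2744) in others. Paired coding genes had a mean of 2.55 ± 2.07 models (SD over genes) against 2.08 ± 1.65 in others, and a gene with more 5' ends has more chances to meet the rule.

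The RefSeq starts are a separate source for the same neighbours. Of 1526 paired genes, 1234 (80.9%) had a promoter entry, and in 372 of these (30.1%) a deposited 5' end coincided with a RefSeq start to the base. It lay within 20 nt in 912 (73.9%, 71.4 to 76.3%) and within 100 nt in 1148 (93%). Both genes had an entry in 547 pairs, and 512 of these (93.6%) were head-to-head within 1000 nt in RefSeq too, at a median of 163.5 nt against 152 nt between the models of the same pairs.

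Neighbours in RefSeq were then compared for the presence of models, which the 5' ends of the catalogue do not enter. RefSeq's table held 989 head-to-head pairs of protein-coding genes within 1000 nt. In 464 of them (46.9%) both genes had a model, in 370 (37.4%) 1 of them and in 155 (15.7%) neither. Of the 464, 390 were pairs in the catalogue, 67 had models over 1000 nt apart and 7 had models that passed each other. Protein-coding genes in such a RefSeq pair had a model in 1277 of 1946 cases (65.6%, 63.5 to 67.7%), against 5698 of 13897 (41%, 40.2 to 41.8%) of those in none. The neighbour of a gene with a model had a model in 71.5% and that of a gene without one in 54.4%. For RefSeq pairs of a protein-coding gene and a lncRNA, the lncRNA had a model in 133 of 909 cases (14.6%, 12.4 to 17.1%) where the coding gene had one and in 64 of 711 (9%, 7 to 11.3%) where it had none, beside 3.61% of all 11462 lncRNAs. How strongly these genes are expressed was not tested.

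Promoter windows of RefSeq, from 250 bases before to 50 after a start, were searched for the 8 motifs whose letters are given above. Among the 1234 paired genes 29.8% (27.3 to 32.5%) held the ETS motif, against 19.8% (18.8 to 20.8%) of 6155 other genes with a model and 10.7% of all 27305 windows. The ETS motif is bound by a family of activators that includes GABPA, itself in a pair with ATP5PF at 401 nt. NRF1, named for the nuclear respiratory factor, matched in 8.51% (7.01 to 10.2%) against 5.62% (5.06 to 6.23%) and 3.27%. YY1 matched in 5.51% (4.3 to 6.93%) against 3.28% (2.85 to 3.76%) and 1.54%.

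For the other motifs the share in paired genes was nearer, as a ratio, to that in other genes with a model. The GC box was found in 71.3% of paired genes, 71.1% of other genes with a model and 44.6% of all windows. CCAAT was found in 40.4%, 38% and 35.7%, CREB in 4.62%, 3.33% and 1.98% and TCTCGCGA in 3.16%, 2.34% and 1.19%. The TATA box was found in 3.89% (2.88 to 5.12%), 5.3% (4.75 to 5.89%) and 12%. Median G+C was 65% in paired genes, 65.3% in other genes with a model and 58.3% in all, and the observed over expected CpG ratio was 0.875, 0.84 and 0.58. The windows of close partners overlap, so the same bases can count for both genes. With the minus-strand gene of each pair alone the ETS share was 31% of 633. That removes the double count only, because the window of a paired gene can still hold the start of its partner. Whether this raised the shares in paired genes was not tested. When the 50 bases after the start were left out, YY1 matched in 2.19% (1.45 to 3.17%) of paired genes. It matched in 0.52% (0.356 to 0.733%) of other genes with a model and in 0.498% of all windows. With these 50 bases the shares were 5.51%, 3.28% and 1.54%. The bases before the start of a paired gene can still hold those after its partner's start. In the 157 stretches between paired starts YY1 matched in 0. Whether the partner's start raised the 2.19% was not tested.

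**Figure D5:**
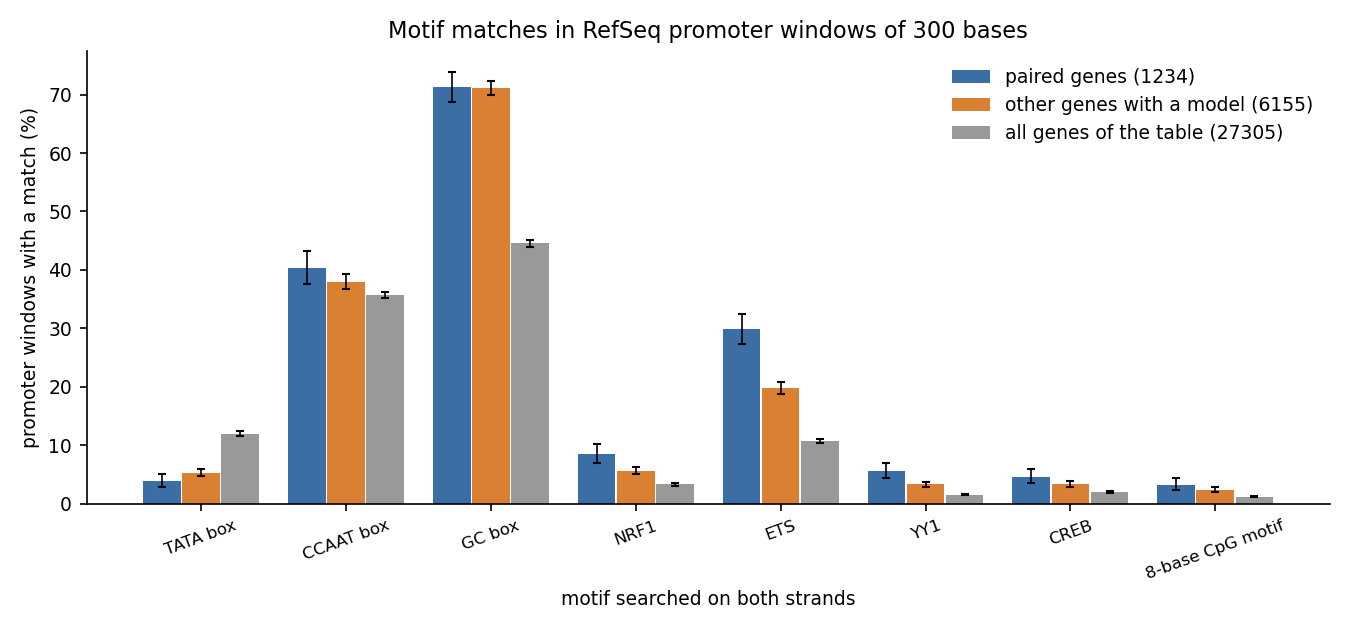
Share of RefSeq promoter windows of 300 bases with a match to each motif (vertical axis, percent) in 1234 paired genes, 6155 other genes with a model and all 27305 genes of the table. Bars are shares and error bars 95% Clopper-Pearson intervals. The ETS bar of paired genes stands at 29.8% against 19.8%, and the GC box bars of both sets with a model stand at 71.3 and 71.1%.

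Chromosome 1 held 73 pairs and chromosome 11 held 63. Of the genes with a model, 15.5% on chromosome 1 and 22% on chromosome 11 were in a pair, beside 16.1% on all chromosomes. Chromosomes 17 and 19 held 56 pairs each, with 19.1% and 15% of their genes with a model in a pair. On chromosome X 6.21% of the genes with a model were in a pair, in 10 pairs.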

How the data were processed

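The deposited file is the authors' list of transcript models and holds only positions in nt, where transcripts, exons and coding regions begin and end. It holds no counts or other value per library. Salmon 1.9.0 and STAR 2.7.8a are listed, with no role, per the submitters' processing notes. Which tool built the models or called coding regions, with which filters and on which build, the sources used here do not state. Pairs were searched between gene identifiers as deposited with Python 3.11.15, and exact (Clopper-Pearson) and order-statistic intervals at 95% were computed with SciPy 1.17.1. They cover counting error only, and genes and pairs are not replicates. The scripts were tested on simulated models. RefSeq's tables (GRCh38.p14) matched 9172 of 9460 genes by type (1472 of 1526 paired genes) and gave 7389 promoter windows; for genes with several starts the one listed first was searched for motifs.

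The members, the family lists and the rule for named genes were chosen with earlier results of these data known. The rule names the 10 closest pairs overall and in each class, 3 pairs on each side of 1000 nt, genes in 2 pairs, the 10 pairs with most models and with the largest ranges, pairs within 1 list and 15 textbook pairs; some of the pairs it names are not reported here. The planned test of counts per library was not run. The alternatives tried were other distance limits, outermost or passing 5' ends, joined identifiers or chromosome Y left out, genes with at least 2 models, other definitions of coding and other promoter windows.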

Additional observations from a re-analysis of the deposited data

How the results depend on the processing

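Of 70 alternative values 57 stayed within 1 interval of the value reported, or within 1.5 times for counts, and 13 moved further. With genes of at least 2 models only, 268 pairs of 535 genes were left, because fewer genes entered; their median distance was 139 nt, 67.2% lay at most 200 nt apart, 78% joined 2 coding genes and 20.9% were mixed. With passing 5' ends allowed the median was 140 nt, taken over signed distances that are negative where 5' ends passed. By absolute distance 58.5% of these pairs lay at most 200 nt apart. With a limit of 500 nt 66.7% did. With only the 250 bases before a start, fewer bases were searched, and the GC box matched in 67.2%, the ETS motif in 25% and the YY1 motif in 2.19% of paired genes. In pairs at most 300 nt apart the ETS share was 33.1%; the cause was not tested. The alternatives with a coding region of at least 100 codons and with the minus-strand gene alone were added after seeing the data, and neither moved a value.

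No paired analysis was possible because the file holds no value per library, and leaving out replicates was not possible for the same reason. Depth is unknown, so the absence of a model or of a closer start is no evidence of absence from the cells.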
